A study of Mus musculus with 16 samples.

Results

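A set of genes that carry fatty acids into muscle fibres and burn them were described here: Fabp3, Lpl, Vldlr, Cd36, Cpt2, Acadm, Acadl, Acadvl, Hadha and Hadhb. They were chosen by name, with earlier results of these data known. A probe set is a group of short probes on the array that together read a transcript. It belonged to these genes when the platform annotation gave it that single gene symbol. All 10 of 10 were in the table, among 4929 genes with a single symbol, and they held 16 probe sets. The samples came from female C57BL/6 mice of 7 weeks, an age the submitters call presymptomatic: 4 mice carried the transgene for human SOD1 with the G93A mutation (SOD1-G93A), and 4 were non-transgenic (NTg). Gastrocnemius, a hindlimb muscle, and triceps, a forelimb muscle, were taken from each mouse and frozen. This gave 4 groups of 4 Affymetrix arrays: SOD1-G93A gastrocnemius, NTg gastrocnemius, SOD1-G93A triceps and NTg triceps. The mutant protein causes a form of amyotrophic lateral sclerosis, in which motor neurons die and muscle loses its nerve supply. The labels name neither the promoter nor the line of the transgene.

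Muscle takes up fatty acids in steps. Lipoprotein lipase (Lpl) sits on the capillary wall and frees fatty acids from circulating triglyceride, and the very low density lipoprotein receptor (Vldlr) helps to bring those lipoproteins to it. The membrane protein CD36 moves fatty acids into the fibre, and the heart-type fatty acid-binding protein (Fabp3) carries them through the cytosol. Carnitine palmitoyltransferase 2 (Cpt2) completes their transfer into mitochondria. There the acyl-CoA dehydrogenases for very long, long and medium chains (Acadvl, Acadl and Acadm) take the first step of each oxidation cycle, and the subunits of the trifunctional protein (Hadha and Hadhb) take the steps that follow on long chains. Slow, oxidative fibres are known to rely on this fuel more than fast, glycolytic ones.

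Promoters are shown, as context for the genes whose signal differed between the muscles and because of the shared Hadha and Hadhb start region. Windows of 300 bases, from 250 before to 50 after an annotated start, were taken from RefSeq on GRCm38.p6. They were found for 9 of the 10 genes, all but Lpl, in 10 windows, and each is written 5′ to 3′ on the strand of its gene. Capitals mark AGGTCA, a single unit of the repeat read by PPAR with RXR and of the elements of related nuclear receptors, and CANNTG, the E-box of myogenic and other basic helix-loop-helix factors, on either strand. In Hadhb they mark the bases also in the Hadha window.
Fabp3, chr4:130308488-130308787, plus strand: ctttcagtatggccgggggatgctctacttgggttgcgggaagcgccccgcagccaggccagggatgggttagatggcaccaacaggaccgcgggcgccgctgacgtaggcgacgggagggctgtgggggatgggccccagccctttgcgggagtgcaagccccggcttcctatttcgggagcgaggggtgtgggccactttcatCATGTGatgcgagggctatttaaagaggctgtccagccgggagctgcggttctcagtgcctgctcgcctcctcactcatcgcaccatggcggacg
Acadm, chr3:153944594-153944893, minus strand: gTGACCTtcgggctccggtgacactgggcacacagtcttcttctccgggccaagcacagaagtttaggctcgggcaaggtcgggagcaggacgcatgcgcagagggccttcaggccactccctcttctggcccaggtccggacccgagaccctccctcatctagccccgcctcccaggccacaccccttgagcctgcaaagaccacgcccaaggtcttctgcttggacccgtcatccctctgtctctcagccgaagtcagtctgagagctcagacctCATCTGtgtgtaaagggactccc
Cd36, chr5:17835847-17836146, minus strand: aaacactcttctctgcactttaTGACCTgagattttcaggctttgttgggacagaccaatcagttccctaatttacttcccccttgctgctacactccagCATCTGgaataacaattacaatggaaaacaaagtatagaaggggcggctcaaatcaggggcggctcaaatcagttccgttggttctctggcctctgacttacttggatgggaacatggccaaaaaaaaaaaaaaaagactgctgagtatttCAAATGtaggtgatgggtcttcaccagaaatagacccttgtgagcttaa
Hadhb, chr5:30155003-30155302, plus strand: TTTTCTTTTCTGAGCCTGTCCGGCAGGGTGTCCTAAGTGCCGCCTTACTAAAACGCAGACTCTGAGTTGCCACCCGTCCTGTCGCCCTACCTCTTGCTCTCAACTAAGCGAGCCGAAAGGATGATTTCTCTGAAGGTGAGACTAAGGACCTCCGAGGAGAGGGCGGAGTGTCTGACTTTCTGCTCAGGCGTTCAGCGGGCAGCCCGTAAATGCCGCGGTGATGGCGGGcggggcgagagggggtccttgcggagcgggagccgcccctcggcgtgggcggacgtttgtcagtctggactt
AGGTCA was found in 3 of the 10 windows (Acadm, Acadvl and Cd36), and in 16.3% of all 32851 windows of this length. CANNTG was found in 6 of the 10 windows and in 72.3% of all. Hadha and Hadhb lie head to head on chromosome 5. Their start sites, at 30154980 and 30155253, are 273 bases apart, so 228 bases belong to both windows. These matches describe the letters of the windows and are not sites of binding.

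Values below are log2 signals as deposited, and a difference of 1 is a doubling. Of the 16 probe sets, 15 had a mean over all arrays above the log2 level of 6.75 and were tested, at least 1 for every gene. The Vldlr probe set 1442169_at lay below it, with a mean of 5.80, and its values ran from 4.77 to 7.06 in SOD1-G93A gastrocnemius, 5.43 to 6.24 in NTg gastrocnemius, 5.34 to 6.30 in SOD1-G93A triceps and 5.16 to 5.80 in NTg triceps. The median signal of an array was between 7.10 and 7.26. Sod1 did not pass the test between the genotypes (averaged difference 0.23, SE 0.21, limma's adjusted p = 0.997), and because the annotation ties its probe set to mouse Sod1, it does not check the transgene. Ckm, the muscle creatine kinase, was lower in replicates 1 and 2 than in replicates 3 and 4 of all 4 groups. In gastrocnemius it was at 14.29 and 14.31 against 14.66 and 14.71 in SOD1-G93A mice, and at 13.97 and 14.06 against 14.48 and 14.44 in NTg mice. Its lowest signals were in 3 triceps arrays, called low in Ckm below: 12.76 in SOD1-G93A replicate 2, and 12.84 and 13.02 in NTg replicates 1 and 2, against 13.84 to 14.51 in the other triceps arrays. Bulk tissue was measured, so fewer cells of a type and less RNA per cell cannot be told apart.

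**Figure D1:**
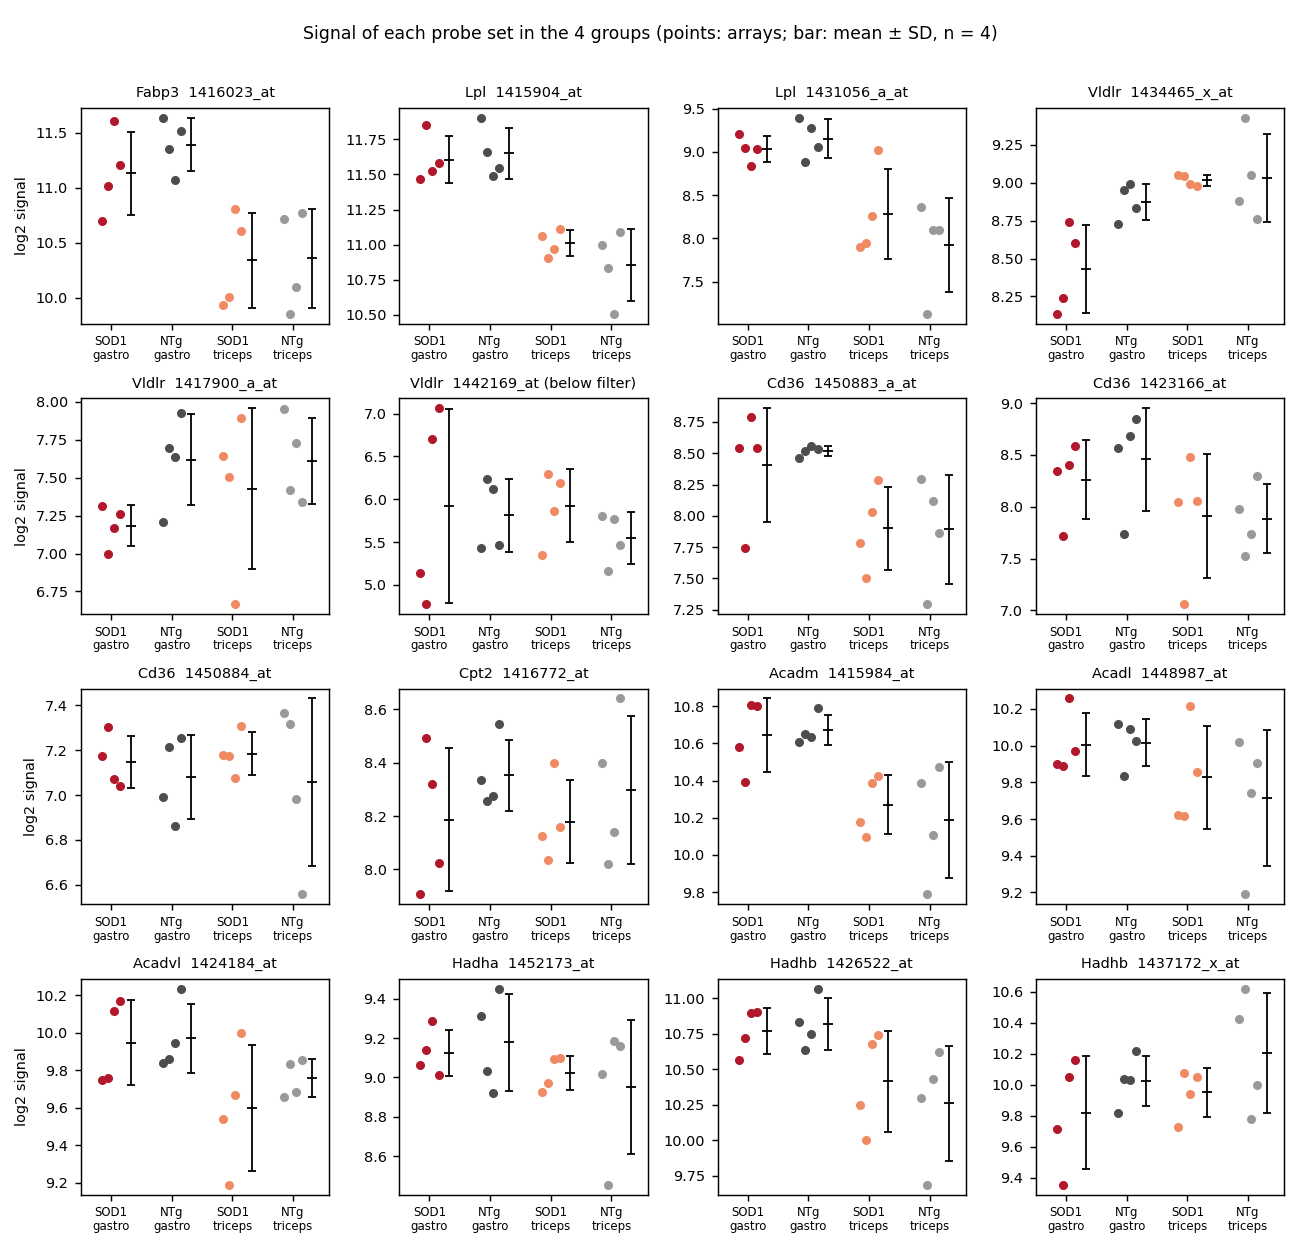
Log2 signal (vertical axis) of each of the 16 probe sets in SOD1-G93A gastrocnemius, NTg gastrocnemius, SOD1-G93A triceps and NTg triceps (SOD1 and gastro in the axis labels), with a point per array and bars for the mean ± SD (n = 4). The vertical axes differ between panels. In Lpl 1415904_at the 8 gastrocnemius arrays lie between 11.47 and 11.90 and the 8 triceps arrays between 10.51 and 11.11.

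The larger differences were between the muscles, which were compared over both genotypes with 8 arrays of each. Lpl, Fabp3 and Acadm were higher in gastrocnemius than in triceps, by 1.34-fold to 1.99-fold. These 3 genes gave 4 of the 15 probe sets called higher, and 0 were called lower. Over all 4637 tested probe sets, 98 (2.11%) were called higher and 73 (1.57%) lower, 3.69% in all. A probe set was called when limma's adjusted p, corrected over all tested probe sets, was under 0.05. Both muscles came from the same mice, and with the mouse as a block 7 of 15 were called higher and 1 lower, against 3.62% and 3.23% of all tested (6.86% in either direction). These were the same 4 and, in addition, Hadhb 1426522_at, Cd36 1450883_a_at and Cd36 1423166_at (higher) and Vldlr 1434465_x_at (lower). The median difference over the 15 was 0.28, against -0.00418 over all tested probe sets. At an unadjusted p under 0.05 in limma there were 9 of 15, against 22.3% of all tested. In 8 of the 15 the signal was higher in gastrocnemius of all 8 mice, which held for 5.93% of all tested. Because the genes were chosen with earlier results of these data known, these shares are a description and not independent support.

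Lpl, at chr8:68880555-68906932, was read by a pair of probe sets. In SOD1-G93A mice, 1415904_at was at 11.47, 11.85, 11.52 and 11.58 in gastrocnemius, against 11.06, 10.90, 10.97 and 11.11 in triceps. In NTg mice it was at 11.90, 11.66, 11.49 and 11.55 in gastrocnemius, against 11.00, 10.83, 10.51 and 11.09 in triceps. Every gastrocnemius array was above every triceps array, the single probe set of the 15 with this property, which 1.25% of all tested had. The mean was 11.63 ± 0.17 in gastrocnemius and 10.93 ± 0.20 in triceps (SD, n = 8 each), a difference of 0.69 (SE 0.096), or 1.62-fold with a 95% interval of 1.41 to 1.86 (limma's adjusted p = 0.000197). The other probe set, 1431056_a_at, was dimmer. It was at 9.21, 9.05, 8.84 and 9.03 in SOD1-G93A gastrocnemius, against 7.91, 7.95, 8.26 and 9.02 in SOD1-G93A triceps. In NTg mice it was at 9.39, 8.89, 9.27 and 9.06 in gastrocnemius, against 8.36, 7.13, 8.09 and 8.10 in triceps. A single triceps array, SOD1-G93A replicate 4, reached into the gastrocnemius range. Here the difference was 0.99 (SE 0.18), or 1.99-fold with a 95% interval of 1.53 to 2.58 (limma's adjusted p = 0.00277). Both probe sets were higher in gastrocnemius of 8 of 8 mice. The deviations of the pair from their group means correlated weakly across the 16 arrays (r = 0.22, which come from 8 mice), so from array to array they did not move closely together.

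Fabp3, at chr4:130308738-130315463, had the largest difference among the fatty acid genes read by a single probe set. In SOD1-G93A mice it was at 10.70, 11.02, 11.60 and 11.21 in gastrocnemius, against 9.94, 10.01, 10.81 and 10.61 in triceps. In NTg mice it was at 11.63, 11.35, 11.07 and 11.52 in gastrocnemius, against 10.72, 9.86, 10.10 and 10.77 in triceps. The NTg groups did not overlap, and in SOD1-G93A mice gastrocnemius replicate 1 lay below triceps replicate 3. Within each of the 8 mice gastrocnemius was higher, by at least 0.60. The difference of the means was 0.91 (SE 0.17), or 1.88-fold with a 95% interval of 1.47 to 2.41 (limma's adjusted p = 0.00374, and 3.79e-05 with the mouse as a block).

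**Figure D2:**
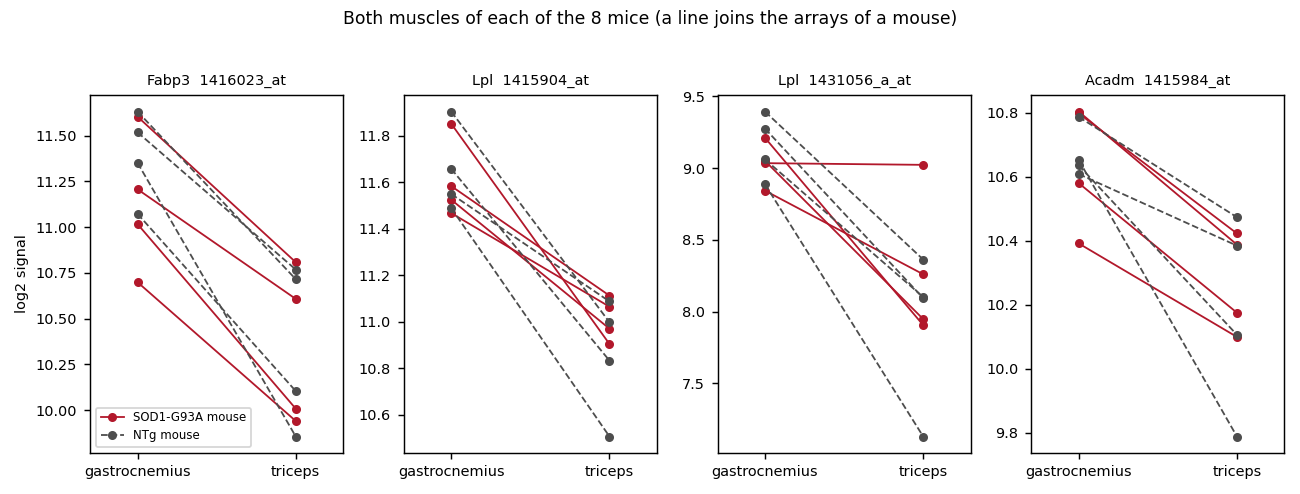
Log2 signal (vertical axis) in gastrocnemius and triceps of each mouse, joined by a line, for the 4 probe sets called without the mouse block. Solid red lines are the 4 SOD1-G93A mice and dashed grey lines the 4 NTg mice. All 8 lines fall towards triceps in each panel, and the line of SOD1-G93A mouse 4 is nearly flat in Lpl 1431056_a_at (0.012).

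CD36 was covered by 3 probe sets that did not behave alike. For 1450883_a_at the 4 values were 8.54, 7.74, 8.79 and 8.54 in SOD1-G93A gastrocnemius, against 7.78, 7.50, 8.03 and 8.28 in SOD1-G93A triceps. In NTg mice the values were 8.46, 8.52, 8.56 and 8.53 in gastrocnemius, against 8.29, 7.29, 8.12 and 7.86 in triceps. NTg gastrocnemius was tight and above all 4 NTg triceps arrays, whereas the SOD1-G93A groups overlapped. The difference was 0.57 (SE 0.17) and was higher in 8 of 8 mice. Limma's adjusted p was 0.0671 without the mouse block and 0.0225 with it. Probe set 1423166_at differed by 0.46 (SE 0.21), higher in 7 of 8 mice, with limma's adjusted p of 0.199 without the block and 0.0349 with it. When a mouse was left out of the fit with the block, the first was called in 6 of 8 cases (adjusted p up to 0.075) and the second in 2 of 8 (up to 0.0925). The third, 1450884_at, was dimmer, with a mean of 7.12, and differed by -0.00614 (95% interval -0.28 to 0.26).

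In its tested probe sets, Vldlr went the other way. In SOD1-G93A mice, 1434465_x_at was at 8.13, 8.24, 8.74 and 8.60 in gastrocnemius, against 9.05, 9.04, 8.99 and 8.98 in triceps. In NTg mice it was at 8.73, 8.95, 8.99 and 8.83 in gastrocnemius, against 8.88, 9.43, 9.05 and 8.76 in triceps. The muscles were apart in the SOD1-G93A mice and overlapped in the NTg mice. Over both genotypes the difference was -0.37 (SE 0.11), lower in gastrocnemius of 7 of 8 mice, with limma's adjusted p of 0.0683 without the mouse block and 0.0476 with it. The call with the block held in 1 of the 8 omissions of a mouse and ended without the 3 triceps arrays low in Ckm (-0.25, limma's adjusted p = 0.303). The name ending _x_at marks a probe set with probes that may also match other transcripts. The other tested Vldlr probe set, 1417900_a_at, was at -0.12 (95% interval -0.47 to 0.23, limma's adjusted p = 0.704). The dim 1442169_at, which was not tested, had a mean of 5.87 in gastrocnemius and 5.74 in triceps.

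The mitochondrial genes had smaller differences. Acadm, at chr3:153922353-153944643, was at 10.58, 10.39, 10.80 and 10.80 in SOD1-G93A gastrocnemius, against 10.18, 10.10, 10.39 and 10.42 in SOD1-G93A triceps. In NTg mice it was at 10.61, 10.65, 10.64 and 10.79 in gastrocnemius, against 10.38, 9.79, 10.11 and 10.47 in triceps. Gastrocnemius and triceps overlapped through SOD1-G93A gastrocnemius replicate 2 alone. The difference was 0.43 (SE 0.10), or 1.34-fold with a 95% interval of 1.16 to 1.56 (limma's adjusted p = 0.0258), and gastrocnemius was higher in 8 of 8 mice. This call ended without the 3 triceps arrays low in Ckm (0.0577) and under 6 of the 16 omissions of an array (up to 0.0642). With the mouse as a block its adjusted p was 0.00989, it was 0.00405 without those 3 arrays, and the call held whichever mouse was left out.

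Hadhb 1426522_at followed. It was at 10.56, 10.72, 10.90 and 10.90 in SOD1-G93A gastrocnemius, against 10.25, 10.00, 10.68 and 10.74 in SOD1-G93A triceps. In NTg mice it was at 10.83, 10.64, 10.75 and 11.07 in gastrocnemius, against 10.30, 9.69, 10.43 and 10.62 in triceps. Its NTg groups did not overlap, and its SOD1-G93A groups did. The difference was 0.46 (SE 0.13), higher in gastrocnemius of 8 of 8 mice, with limma's adjusted p of 0.0683 without the mouse block and 0.0127 with it, and with the block it was called whichever mouse was left out. Without the 3 triceps arrays low in Ckm the difference was 0.26 (limma's adjusted p = 0.256), or 0.31 with the block (0.023). The second Hadhb probe set, 1437172_x_at, was at -0.16 (SE 0.13, limma's adjusted p = 0.499), and without the 3 triceps arrays low in Ckm its direction turned, to 0.02 without the block and 0.15 with it. Over all 16 arrays its values correlated with those of the first at r = -0.34. Hadha, the partner subunit, was at 0.16 (95% interval -0.07 to 0.40, limma's adjusted p = 0.384). Hadha and Hadhb 1426522_at, whose start sites are the neighbours shown above, correlated at r = 0.80 over the 16 arrays, and at 0.78 in deviations from the group means. Such values were not particular to this pair. Hadhb 1426522_at correlated with Acadm at r = 0.91 (0.82 in deviations) and with Acadl at 0.83 (0.78), on other chromosomes. With Acadvl (0.69 and 0.61) and Cpt2 (0.46 and 0.63) its r was lower. Hadhb 1437172_x_at correlated with Hadha at r = -0.42 (-0.38 in deviations).

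Acadvl and Acadl were both higher in gastrocnemius of 8 of 8 mice without passing the test. Acadvl differed by 0.28 (SE 0.11, limma's adjusted p = 0.151, and 0.0505 with the mouse block). Acadl differed by 0.24 (SE 0.12, limma's adjusted p = 0.241, and 0.0851 with the block). Cpt2 was nearly level between the muscles, at 0.03 with a 95% interval of -0.21 to 0.27. Its mean was 8.27 ± 0.21 in gastrocnemius and 8.24 ± 0.22 in triceps (SD, n = 8 each). Without the 3 triceps arrays low in Ckm, and without the block, the differences were 0.15 for Acadl, 0.05 for Hadha, 0.25 for Cd36 1423166_at and -0.04 for Cpt2.

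**Figure D3:**
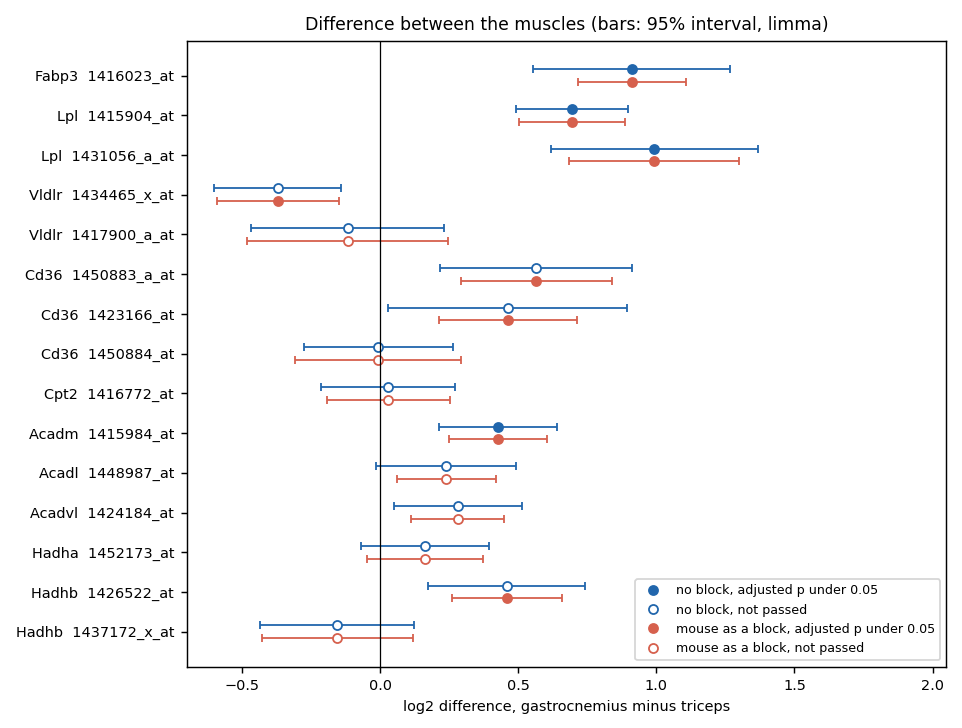
Log2 difference, gastrocnemius minus triceps (horizontal axis), of the 15 tested probe sets, with 95% intervals from limma without the mouse block (blue, upper) and with it (red, lower). Filled points have an adjusted p under 0.05. Filled points number 4 without the block and 8 with it, and Vldlr 1434465_x_at is the one filled point left of 0.

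The muscles also differed in fibre markers, whose part in these differences was not tested. All 10 of 10 slow or oxidative fibre markers were called higher in gastrocnemius, with a median difference of 4.71. Myh7, the slow myosin heavy chain, was at 6.91, and Mb, myoglobin, at 1.03. The summed signal of the list, on the log2 scale, ran from 14.35 to 15.17 in SOD1-G93A gastrocnemius and 14.78 to 15.25 in NTg gastrocnemius, against 11.96 to 13.51 in SOD1-G93A triceps and 11.98 to 12.78 in NTg triceps. Of 10 fast fibre markers, 0 were called, and all 10 had a difference above 0 (median 0.50). Their summed signal ran from 17.31 to 17.69 in SOD1-G93A gastrocnemius and 17.10 to 17.57 in NTg gastrocnemius, against 16.06 to 17.56 in SOD1-G93A triceps and 16.15 to 17.49 in NTg triceps. The 3 triceps arrays low in Ckm had the lowest of these sums (16.06, 16.15 and 16.29), and the other triceps arrays lay between 16.95 and 17.56. All 7 general muscle fibre markers had a difference above 0 (median 0.60, with Ckm at 0.60, Acta1 at 0.61 and Tnnc2 at 0.66), and Mb was the 1 called. The lists overlap, as Tnnc2 and Tnni2 are also among the fast fibre markers and Mb among the slow or oxidative ones. The summed signal of these 7 ran from 16.58 to 17.04 in SOD1-G93A gastrocnemius and 16.47 to 16.90 in NTg gastrocnemius, against 15.33 to 16.84 in SOD1-G93A triceps and 15.39 to 16.75 in NTg triceps. Both Schwann cell markers analysed, of 7 listed, were called higher in gastrocnemius (Mbp 2.34 and Pmp22 1.26). Their summed signal ran from 9.13 to 10.55 in SOD1-G93A gastrocnemius and 10.01 to 10.37 in NTg gastrocnemius, against 8.48 to 8.82 in SOD1-G93A triceps and 8.16 to 8.78 in NTg triceps.

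Lpl and Cd36 are also expressed by adipocytes, endothelial cells or macrophages between the fibres. Of 12 adipocyte markers 2 were analysed, and neither passed the test between the muscles (Adipoq 0.10, SE 0.19, and Fabp4 0.14, SE 0.12). Their summed signal ran from 11.14 to 11.94 in SOD1-G93A gastrocnemius and 11.05 to 11.46 in NTg gastrocnemius, against 10.96 to 11.54 in SOD1-G93A triceps and 10.87 to 11.32 in NTg triceps. Of 13 endothelial markers 5 were in the table, 3 were tested and 0 were called. The summed signal of the 5 ran from 9.06 to 9.77 in SOD1-G93A gastrocnemius and 9.09 to 9.58 in NTg gastrocnemius, against 8.95 to 9.73 in SOD1-G93A triceps and 9.04 to 9.54 in NTg triceps. Of 10 macrophage markers 6 were in the table, 2 were tested and 0 were called. The part of these cells in the differences was not tested, and most of their listed markers were not analysed here.

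Between the genotypes, 0 of the 15 probe sets were called in gastrocnemius, in triceps or over both muscles. The same held for all 4637 tested probe sets in each of these comparisons (0%), so the count says nothing particular about the fatty acid genes. At an unadjusted p under 0.05 in limma there was 1 of 15 in gastrocnemius, 0 in triceps and 0 over both muscles, against 2.22%, 2.54% and 1.83% of all tested. The SOD1-G93A and NTg arrays of a muscle overlapped for all 15, whereas they did not overlap for 2.7% of all tested in gastrocnemius and 0.949% in triceps.

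The 1 probe set was Vldlr 1434465_x_at in gastrocnemius. Its mean was 8.43 ± 0.29 in SOD1-G93A and 8.88 ± 0.12 in NTg gastrocnemius (SD, n = 4 each), a difference of -0.45 (SE 0.15, 95% interval -0.77 to -0.12, limma's adjusted p = 0.999). SOD1-G93A replicate 3, at 8.74, lay above NTg replicate 1, at 8.73, and the other arrays were apart. Vldlr 1417900_a_at was at 7.31, 7.00, 7.17 and 7.26 in SOD1-G93A gastrocnemius, against 7.21, 7.70, 7.64 and 7.93 in NTg gastrocnemius. That difference was -0.43 (95% interval -0.93 to 0.06), so both tested probe sets of the receptor had values of like size. In triceps they were at -0.01 and -0.18. Neither passed the test in either muscle. Over the 16 arrays the deviations of this pair from their group means hardly correlated (r = 0.02). The dim 1442169_at, which was not tested, had means of 5.92 in SOD1-G93A and 5.81 in NTg gastrocnemius.

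The 15 probe sets, those of Vldlr included, bounded the genotype difference as follows. In gastrocnemius the 15 differences ran from -0.45 to 0.07, 14 of them below 0, with a median of -0.11 against -0.01 over all tested probe sets. In triceps they ran from -0.25 (Hadhb 1437172_x_at) to 0.36 (Lpl 1431056_a_at), 9 of them above 0, with a median of 0.03 against 0.02 over all tested. The narrowest bounds were on Lpl 1415904_at, which differed by -0.04 in gastrocnemius (95% interval -0.33 to 0.24) and by 0.16 in triceps (-0.13 to 0.44). Acadm differed by -0.03 in gastrocnemius (-0.33 to 0.27) and by 0.08 in triceps (-0.22 to 0.39). Fabp3 had wider ones, at -0.26 in gastrocnemius (-0.77 to 0.24) and -0.02 in triceps (-0.53 to 0.49). All 95% intervals of the 15 lay between -0.93 and 0.45 in gastrocnemius and between -0.68 and 0.89 in triceps, so a doubling lay outside every one of them. Of the 10 slow or oxidative fibre markers, 9 were above 0 between the genotypes in triceps (median 0.90) and 1 in gastrocnemius (median -0.11). In both muscles 0 of them were called. Their part in the genotype values of the fatty acid genes was not tested.

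**Figure D4:**
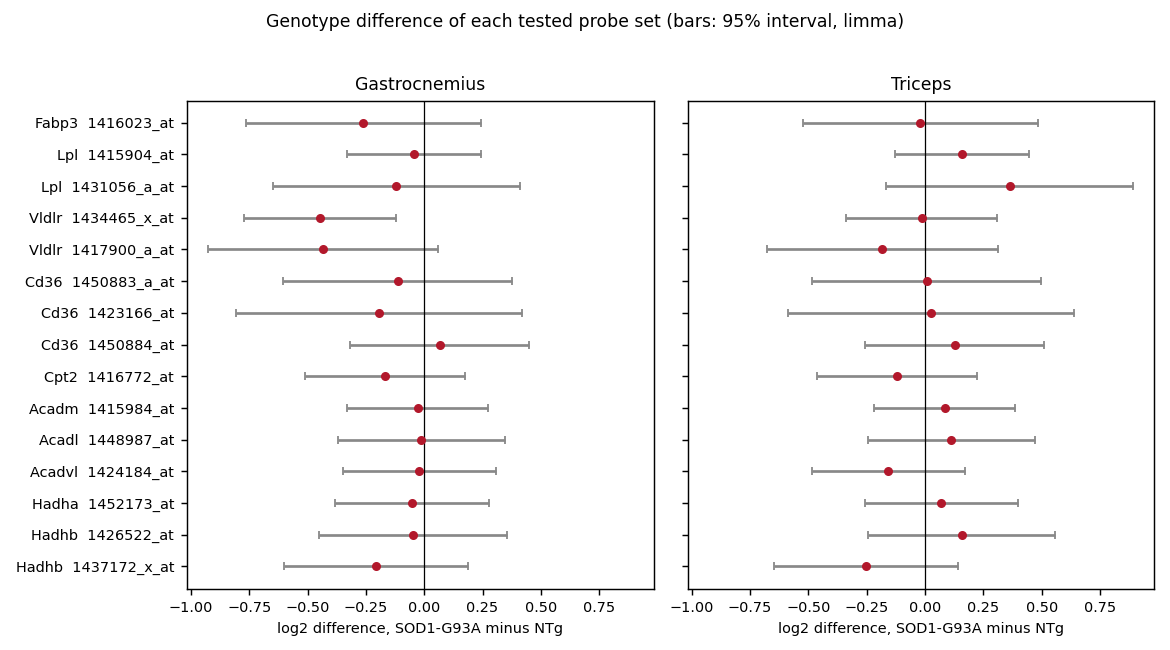
Log2 difference, SOD1-G93A minus NTg (horizontal axis), of the 15 tested probe sets in gastrocnemius (left) and triceps (right), with 95% intervals from limma (n = 4 arrays a group). In gastrocnemius 14 points lie left of 0 and the interval of Vldlr 1434465_x_at leaves out 0, while all intervals in triceps include it.

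The genotype effect was then compared between the muscles, which asks equally whether the difference between the muscles depended on the genotype. None of the 15 was called (0 of all 4637 tested, 0%), and none had an unadjusted p under 0.05 in limma, against 1.85% of all. The differences ran from -0.48 to 0.14, 13 of them below 0, with a median of -0.12 against -0.04 over all tested. Fabp3 was higher in gastrocnemius by 0.79 ± 0.17 in SOD1-G93A mice and 1.03 ± 0.32 in NTg mice (SD, n = 4 each). Lpl 1415904_at was higher by 0.59 ± 0.24 in SOD1-G93A mice and 0.79 ± 0.23 in NTg mice. Acadm was higher by 0.37 ± 0.06 in SOD1-G93A mice and 0.48 ± 0.28 in NTg mice. None of these differences between the genotypes passed the test. For Vldlr 1434465_x_at the effect differed by -0.43 (SE 0.22, limma's unadjusted p = 0.0638, adjusted p = 0.999).

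Of the other genes of fatty acid supply, oxidation and their regulation, 49 of 73 listed were in the table and 41 were tested. In the muscle comparison, 2 of the 41 were called higher in gastrocnemius and 0 lower, with a median of 0.06. Over all tested probe sets 2.11% were called higher, which is a share of probe sets and not of genes. A count this small is not read as a result about these genes. The called pair belonged to the 23 genes of carnitine transport and oxidation, whose median was 0.16. Etfa, a subunit of the flavoprotein that takes electrons from the acyl-CoA dehydrogenases, differed by 0.35 (SE 0.086, limma's adjusted p = 0.0336). Ech1, an isomerase for unsaturated fatty acids, differed by 0.39 (SE 0.10, limma's adjusted p = 0.0471). Both calls ended without the 3 triceps arrays low in Ckm, with and without the mouse block, and they held in 7 (Etfa) and 3 (Ech1) of the 16 omissions of an array. With the mouse as a block and all arrays both held (0.0388 and 0.0221), and Acaa2, the thiolase of the last step, joined them with a difference of 0.37 (adjusted p = 0.0284, against 0.079 without the block). Over all tested probe sets 3.62% were called higher with the block. None of 7 genes of supply and activation (median -0.03) and none of 11 regulators and co-regulated genes (median 0.04) was called. Of 28 genes of mitochondrial content, such as citric acid cycle enzymes and respiratory chain subunits, 0 were called without the block and 1 with it, against 6.86% of all tested with it, while 23 had a difference above 0 (median 0.24).

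Among pathway genes lower in gastrocnemius, the smallest p belonged to Tfam, a mitochondrial transcription factor (-0.45, SE 0.19), and to Acadsb and Nrip1 (-0.30 and -0.49), and none passed the test. Between the genotypes, 0 of these 41 and 0 of the 28 were called in either muscle. Txnip, an inhibitor of glucose uptake, was the 1 with an unadjusted p under 0.05. Its brightest probe set differed by 0.47 in triceps (SE 0.14, limma's unadjusted p = 0.00318 and limma's adjusted p = 0.994) and by 0.27 in gastrocnemius (SE 0.14). The other tested Txnip probe set, which was dimmer, differed by 1.68 in triceps and 0.18 in gastrocnemius, so the sizes were not alike.

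Within groups, some arrays were low or high for many of the genes. NTg triceps replicate 2 was the lowest of its group for 9 of the 15 probe sets and the lowest of all 16 arrays for 7, with a mean deviation of -0.24 from its group. SOD1-G93A triceps replicate 2 was the lowest of its group for 8 (mean deviation -0.21), and SOD1-G93A triceps replicate 4 the highest for 9 (mean deviation 0.22). In gastrocnemius, NTg replicate 4 was the highest of its group for 9. Over all tested probe sets, between 45.1% (NTg triceps replicate 1) and 53.3% (NTg triceps replicate 2) lay below the group mean on any array. This share counts directions and not the size of a departure, so it cannot show whether these arrays stood apart in general. Both arrays with the lowest mean deviation are among the 3 low in Ckm, while the third, NTg triceps replicate 1, had a mean deviation of 0.18.

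The mean difference between the muscles was also taken by replicate number, as the labels name no batch. In mice 1 and 2 of both genotypes it was 1.04 for Fabp3, 0.77 for Lpl 1415904_at and 0.45 for Acadm. In mice 3 and 4 it was 0.78, 0.62 and 0.41 for these probe sets. For these probe sets both sets of mice thus gave the same direction with similar sizes. Lpl 1431056_a_at (1.30 in mice 1 and 2, 0.68 in mice 3 and 4), Hadhb 1426522_at (0.63 and 0.29) and Vldlr 1434465_x_at (-0.59 and -0.15) varied more. Hadha was at 0.29 and 0.03. The direction changed in Hadhb 1437172_x_at (-0.48 and 0.17) and Vldlr 1417900_a_at (-0.33 and 0.09). It also changed in Cd36 1450884_at (-0.09 and 0.08) and Cpt2 (0.10 and -0.04).

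**Figure D5:**
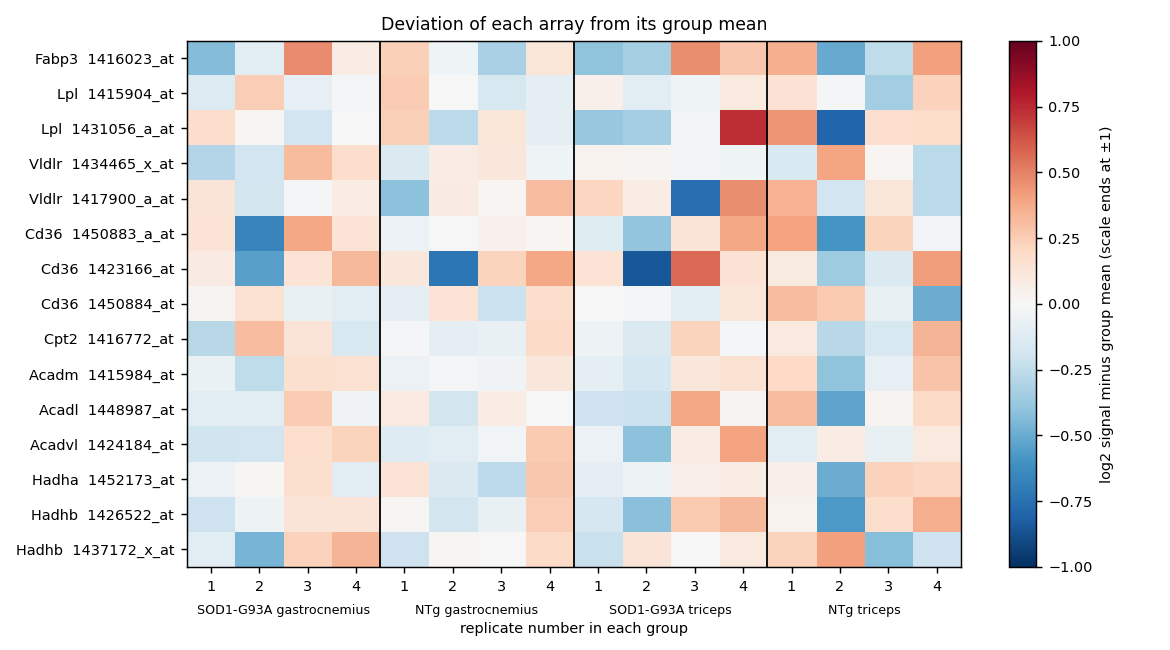
Deviation of each array from its group mean (colour, log2 units, scale ends at ±1) for the 15 tested probe sets (rows) on the 16 arrays (columns, by replicate number within group). NTg triceps replicate 2 is below its group mean (blue) for 11 of the 15 and SOD1-G93A triceps replicate 2 for 12.

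The pattern of the genes over the 16 arrays was compared with that of 3024 other genes, as a description. The arrays share 8 mice and 2 muscles. The mean of the 6 genes from Cpt2 to Hadhb was most like Myot, which encodes a Z-disc protein (r = 0.91), Nnt, a mitochondrial transhydrogenase (0.90), Ech1 (0.90), Mdh1, the cytosolic malate dehydrogenase (0.90), and Coq8a, a gene of coenzyme Q synthesis (0.90). In deviations from the group means their r was still 0.83 to 0.86. Lpl was most like Tpm3 (r = 0.94) and Myoz2 (0.94), both on the list of slow fibre markers, followed by Rpl7, Pdlim1 and Hspb7 (0.92 each). In deviations from the group means these fell to between 0.46 and 0.56. All of these genes were picked for the highest r over the same 16 arrays, and that r includes the difference between the muscles. The values in deviations are therefore a description, and the contrast between the lists cannot be read as a result.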

How the data were processed

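Biotin-labelled cRNA from total RNA of each muscle was hybridised to an Affymetrix mouse array, per the labels' protocols. The deposited values are log2 signals, 1 per probe set and array, and the submitters' processing notes name MAS5, with no version. How they were scaled and which filter left 7729 probe sets is not given in the sources used here, and base 2 was read from the range of the values (-0.773 to 14.81). For arrays, their number limits the precision.

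Symbols came from the platform annotation. It gave 7053 probe sets a single symbol, 330 several and 346 none, and 7048 matched RefSeq (GRCm38.p6), with 0 symbols changed. The 4637 probe sets with a mean above the 40th percentile (log2 6.75) were tested. limma 3.58.1 in R 4.3.3 fitted 1 mean per group (lmFit, eBayes with an intensity trend), with p-values adjusted by Benjamini-Hochberg over all tested probe sets and a threshold of 0.05, in 5 comparisons. The averaged genotype comparison had the mouse as a random block (consensus correlation 0.18). The muscles of a mouse share its replicate number. By the design text, gastrocnemius and triceps were of the same 4 mice of each genotype, and in deviations from the group means such pairs correlated at 0.14 to 0.39, each gastrocnemius array best with its own number (8 of 8). A fit with the mouse as a fixed block was therefore the alternative for the muscle comparison. All 16 arrays were used, and no pair was identical. Scripts were tested on simulated data.

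The genes and lists were chosen with earlier results of these data known. Named are all probe sets of the 10 genes, in each comparison the 3 other pathway genes of smallest p per direction (the text gives part of them), the 5 genes of most like pattern, and markers. A pathway or marker gene with several probe sets is given by its brightest tested one. The 3 triceps arrays low in Ckm were singled out after their values were seen.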

Additional observations from a re-analysis of the deposited data

How the results depend on the processing

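The count of 0 calls between the genotypes, and for the difference of effects, held under all alternatives run, and the replicate block changed no call there. Leaving out an array put the median of the 15 probe sets between -0.11 and -0.05 in gastrocnemius, -0.09 and 0.13 in triceps, -0.10 and 0.02 over both muscles, -0.23 and -0.07 for the difference of effects, and 0.21 and 0.35 between the muscles. Between the muscles, Fabp3 and both Lpl probe sets were called under 25 of 25 alternatives, those with an array left out included. Acadm was called under 17 of 25, Etfa under 12 and Ech1 under 7. The count of calls was 4 and became 8 with the replicate block (mouse), 7 with replicate numbers 1 and 2 against 3 and 4 as the block, and 8 with the replicate block and quantile normalization, an alternative chosen after seeing the data. It was 3 after quantile normalization (Acadm at 0.0632) and 3 without the 3 triceps arrays low in Ckm, and 3 to 6 when an array was left out. With the block it was 5 to 8 when a mouse was left out. With the block and without the 3 arrays it was 6, with Vldlr 1434465_x_at at -0.25 (limma's adjusted p = 0.303) and Cd36 1423166_at at 0.0509. Over all tested probe sets the calls between the muscles were 171, 318 with the block and 103 without the 3 arrays. The cause of these changes was not tested. Across the genotypes, deviations of arrays with the same number correlated at 0.000647 to 0.37, best with their own number in 1 of 8, while Ckm was lower in numbers 1 and 2 in all 4 groups. What the numbers share across the genotypes is not stated in the labels.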
